A study of Rattus norvegicus with 6 samples.

Results

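The polyamine genes of rat liver were followed here across livers exposed to tert-butyl alcohol (tBA) and vehicle livers. The 10 genes were Odc1, Oaz1, Azin1, Amd1, Srm, Sms, Sat1, Smox, Paox and Aoc1, taken by symbol. Of these 10, 9 had a probe, out of 15284 genes named on the array; no probe was matched to Paox, which was not analysed here. Aoc1 was chosen by its measured tBA minus vehicle difference on these same 6 arrays, and the other genes for their place in the pathway with those results known. The differences of the 9 genes below are therefore a description, and nothing is read from their tests.

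Each array measured the liver RNA of 1 male Sprague-Dawley (Crl:CD(SD)) rat, an outbred stock, 5 weeks old at purchase and kept on a basal diet. The tBA group was 3 rats given tert-butyl alcohol, a tertiary alcohol met as a solvent and fuel additive, with a daily dose of 1000 mg/kg, and the vehicle group was 3 rats. The vehicle was purified water in the sample labels and corn oil in the treatment protocol, and the duration was 28 days in the series description and 9 weeks in the treatment protocol. No allele or second agent is given for either group. The arrays were 1-colour Agilent arrays, and a level below is the log2 of the processed signal minus the 75th percentile of its array, so that a level of 0 is the 75th percentile. Levels of different probes are not on a common scale and were not compared. The array of tBA replicate 1 shared slide 1 with all 3 vehicle arrays, while tBA replicates 2 and 3 were alone on slide 2, so slide and treatment can be separated only through tBA replicate 1. No spot was saturated, and 61.5% to 66.9% of 61657 probes were well above background per array. All 8 hepatocyte markers looked up (Alb, Ttr and Apob among them) were well above background on all 6 arrays. Their mean level, set against the vehicle mean, lay between -0.094 and 0.069 on the tBA arrays and between -0.070 and 0.042 on the vehicle arrays. By gene, 6 were higher and 2 lower with tBA, from -0.36 for Apoa1 to 0.36 for Cps1.

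Polyamines (putrescine, spermidine and spermine) are small cations that bind nucleic acids and are needed for growth. Ornithine decarboxylase makes putrescine from ornithine, antizyme marks that enzyme for destruction by the proteasome, and the antizyme inhibitor in turn takes up antizyme. Decarboxylated S-adenosylmethionine supplies the aminopropyl groups that spermidine and spermine synthases add, while an acetyltransferase and several oxidases run the way back. Diamine oxidase, encoded by Aoc1, is a secreted copper enzyme that oxidises putrescine and histamine and is known for its high activity in intestine and kidney.

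The stretches of 250 bases before the annotated start of 4 of the genes are shown to give the sequence context of Aoc1, which had the largest difference by the brightest probe, of Amd1, which came next, of the entry enzyme Odc1, and of Oaz1, the most even gene. The sequences are those of RefSeq on GRCr8, in which 9 of the 10 genes were matched, and are written 5′ to 3′ on the strand of the gene. Capitals mark each match, on either strand, to one of 4 motifs. The E-box was searched as CACGTG and the TATA box as TATAAA. The letters CCAAT stood for the CCAAT box and the letters GGGCGG for the GC box. The matches marked here do not overlap.
Aoc1 promoter, chr4:79142876-79143125, plus strand: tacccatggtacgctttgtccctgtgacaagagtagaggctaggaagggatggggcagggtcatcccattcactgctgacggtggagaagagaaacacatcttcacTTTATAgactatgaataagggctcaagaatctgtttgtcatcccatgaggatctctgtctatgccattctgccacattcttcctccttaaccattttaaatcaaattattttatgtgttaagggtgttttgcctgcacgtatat
Amd1 promoter, chr20:45265983-45266232, minus strand: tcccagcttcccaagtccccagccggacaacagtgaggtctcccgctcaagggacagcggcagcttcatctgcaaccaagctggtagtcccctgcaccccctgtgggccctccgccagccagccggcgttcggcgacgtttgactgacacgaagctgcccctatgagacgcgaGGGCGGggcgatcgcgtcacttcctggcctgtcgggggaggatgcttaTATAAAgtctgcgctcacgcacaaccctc
Odc1 promoter, chr6:46058415-46058664, plus strand: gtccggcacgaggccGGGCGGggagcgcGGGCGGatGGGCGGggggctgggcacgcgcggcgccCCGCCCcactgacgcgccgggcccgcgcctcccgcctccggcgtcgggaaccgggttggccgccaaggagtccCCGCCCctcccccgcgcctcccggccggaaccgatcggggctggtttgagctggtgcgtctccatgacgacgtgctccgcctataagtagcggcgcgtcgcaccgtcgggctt
Oaz1 promoter, chr7:9536991-9537240, minus strand: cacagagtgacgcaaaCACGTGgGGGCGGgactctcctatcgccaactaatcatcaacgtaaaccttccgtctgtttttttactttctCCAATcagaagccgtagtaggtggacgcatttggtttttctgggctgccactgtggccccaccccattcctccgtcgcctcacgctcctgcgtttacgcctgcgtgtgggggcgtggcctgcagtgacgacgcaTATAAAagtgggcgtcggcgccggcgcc
The Aoc1 window held 1 match, to TATAAA on the opposite strand and beginning 144 bases before the start, and 43.2% of its bases were G or C. In the Amd1 window, TATAAA began 29 bases before the start and GGGCGG 77 bases before it. The Odc1 window was 78% G and C and held 5 matches to GGGCGG and none to the other motifs. Oaz1 had 1 match to each of the 4. Over all 33469 promoter windows of this length, TATAAA was found in 12.9%, CCAAT in 34.0%, GGGCGG in 30.5% and CACGTG in 5.59%. A match is a string of letters and says nothing of binding.

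Across the 9 genes, Aoc1 was higher with tBA and Azin1, the antizyme inhibitor, lower, each with groups that did not overlap. The other 7 had groups that overlapped by their brightest probe. Aoc1 was the 1 gene whose difference exceeded 1 on the log2 scale, and the other 8 stayed under 0.5. By the brightest probe, 6 genes were higher and 3 lower, with a median difference of 0.16 against 0.0032 over 11094 genes tested. Of those 11094 genes, 5609 were higher and 5485 lower. All 19 probes of the 9 genes were well above background on all 6 arrays. In limma 0 of the 9 genes passed an adjusted p of 0.05, where 0.0361% of all genes did, and 0 of the 19 probes, where 0.114% of 37647 probes did. At an unadjusted p under 0.05 there were 2 of the 9 genes, where 15.1% of all genes fell. Groups did not overlap in 2 of the 9 genes and in 24.2% of all genes, with 12.8% higher and 11.3% lower in tBA livers. Among the 19 probes there were 5 without overlap, where 24.7% of all probes were. Nothing is read from these counts, since this contrast entered the choice of Aoc1. In bulk liver RNA, fewer cells of a type and less RNA per cell cannot be told apart.

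**Figure D1:**
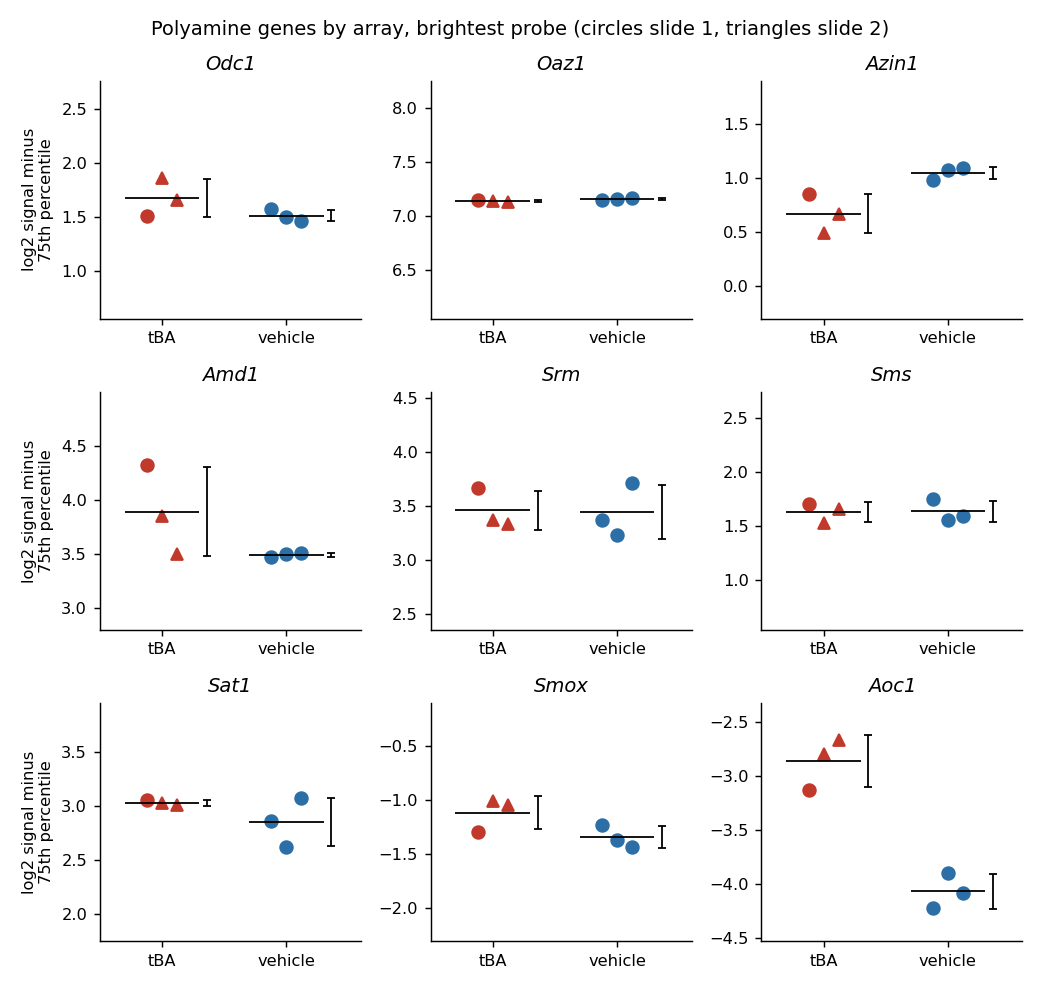
Level of each polyamine gene per array (log2 signal minus the 75th percentile of the array, brightest probe), with tBA in red left of vehicle in blue, circles for slide 1 and triangles for slide 2. Horizontal lines are means and the bars beside them 1 SD (n = 3 each); every panel spans the same log2 height, and the tBA and vehicle points stand apart in the panels of Aoc1 and Azin1.

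Odc1 encodes ornithine decarboxylase, the regulated entry step. Its level was 1.51, 1.86 and 1.66 in tBA livers 1 to 3, against 1.58, 1.50 and 1.47 in vehicle livers 1 to 3. The tBA livers of slide 2 were the high ones and tBA replicate 1 lay among the vehicle livers. The difference was 0.16 (SE 0.11), its other probe gave 0.22 (SE 0.12), and within slide 1 tBA replicate 1 was at -0.0032 against the vehicle mean. It was at 0.25 without tBA replicate 1 and at 0.072 without tBA replicate 2.

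Oaz1, the antizyme, stood at 7.14, 7.13 and 7.13 in tBA livers, against 7.14, 7.16 and 7.17 in vehicle livers. Its 6 values spanned 0.041, a range narrower than in all but 0.0090% of the 11094 genes. The SD was 0.0096 in tBA livers and 0.012 in vehicle livers (n = 3 each), and the difference -0.020 (SE 0.076). Its other probe was at -0.026 with a range of 0.060 over the 6 arrays. Antizyme is made by a frameshift during translation that polyamines favour, a step that RNA levels do not show. With quantile normalization, which sets all arrays to the same distribution, the difference was -0.15.

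Azin1 resembles ornithine decarboxylase without its activity and releases the enzyme from antizyme. It was at 0.85, 0.49 and 0.67 in tBA livers, below 0.98, 1.07 and 1.09 in vehicle livers. All 3 tBA values lay below the lowest vehicle value, and the tBA livers spread more (SD 0.18) than the vehicle livers (SD 0.059). The log2 difference was -0.38 (SE 0.12), or 1.30-fold lower. A further probe of Azin1 had levels of -0.48, -0.58 and -0.71 in tBA livers, against -0.041, -0.15 and -0.11 in vehicle livers, again without overlap. That probe gave -0.49 (SE 0.096), so both probes ran the same way. Within slide 1 the difference was -0.19 by the brightest probe and -0.38 by the other.

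Amd1 encodes S-adenosylmethionine decarboxylase, which makes the aminopropyl donor. Its levels were 4.32, 3.85 and 3.50 in tBA livers, against 3.47, 3.50 and 3.50 in vehicle livers. The 3 vehicle livers were nearly alike (SD 0.016), while the tBA livers spread over 0.82 (SD 0.41), with replicate 1 the highest and replicate 3 inside the vehicle range. The difference was 0.40 (SE 0.21). Its other probe repeated that order, with 3.77, 3.48 and 2.81 in tBA livers and 3.01, 2.94 and 2.95 in vehicle livers, at a difference of 0.38 (SE 0.24). By the brightest probe tBA replicate 1, on the slide of the vehicle arrays, was 0.83 above the vehicle mean. Without that liver, leaving the 2 tBA livers of slide 2, the difference was 0.18.

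Spermidine synthase, Srm, differed by 0.018 (SE 0.16). Levels of 3.67, 3.37 and 3.34 in tBA livers lay inside the vehicle range of 3.23 to 3.72, in which vehicle replicate 3 was the highest of all 6 livers. Its sign turned under 5 of the 13 alternatives that can move a difference, which ran from -0.088 without tBA replicate 1 to 0.23 with slide as a block.

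Sms, spermine synthase, was read by 3 probes that did not give the same difference. The brightest had levels of 1.70, 1.53 and 1.65 in tBA livers and 1.74, 1.56 and 1.59 in vehicle livers, at -0.0043 (SE 0.098). The probe A_64_P054833 had 0.94, 0.94 and 0.97 in tBA livers, below 1.34, 1.18 and 1.24 in vehicle livers, at -0.30 (SE 0.085). That separation was as large within slide 1, at -0.32. The dim probe A_44_P323914 was at -0.43 (SE 0.16), with groups that overlapped, and at -0.13 with normexp background correction. The mean of the 3 probes was at -0.25. Which part of the transcript each probe reads was not analysed here.

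**Figure D2:**
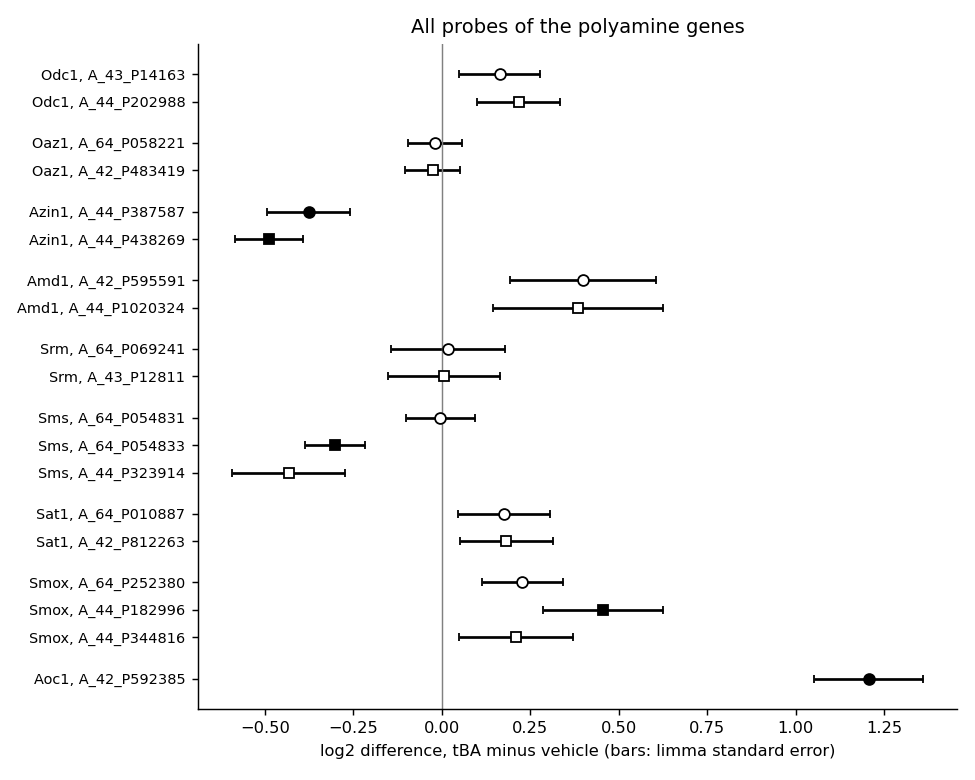
Log2 difference, tBA minus vehicle, of all 19 probes of the 9 genes, with the limma standard error as bars. Circles are the brightest probe of a gene and squares its others, and filled symbols mark the 5 probes whose tBA and vehicle values did not overlap; the 3 Sms probes lie at -0.0043, -0.30 and -0.43.

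On the breakdown side, Sat1 encodes the spermidine and spermine acetyltransferase that starts the way back to putrescine. It was at 3.05, 3.02 and 3.00 in tBA livers, against 2.86, 2.62 and 3.07 in vehicle livers. Here the spread lay with the vehicle livers (SD 0.23), while the tBA livers were close together (SD 0.025). All 3 tBA livers lay above vehicle replicates 1 and 2 and below vehicle replicate 3. The difference was 0.18 (SE 0.13) by either of its 2 probes, at 0.062 without vehicle replicate 2 and 0.29 without vehicle replicate 3.

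Smox encodes spermine oxidase, which turns spermine directly into spermidine. Levels were -1.30, -1.01 and -1.05 in tBA livers, against -1.24, -1.37 and -1.43 in vehicle livers, a difference of 0.23 (SE 0.11). All 3 Smox probes were higher with tBA, at 0.23, 0.46 and 0.21. For the probe at 0.46 (SE 0.17) the groups did not overlap, with -1.72, -1.44 and -1.96 in tBA livers and -1.97, -2.18 and -2.34 in vehicle livers, though the nearest values were almost level. Within slide 1 the brightest probe was at 0.051 and the probe at 0.46 was at 0.44.

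Aoc1, diamine oxidase, had levels of -3.13, -2.79 and -2.67 in tBA livers, against -4.22, -3.90 and -4.09 in vehicle livers. Every tBA liver was above every vehicle liver, and the gap between the groups was wider than the range within either. Means were -2.86 ± 0.24 in tBA livers and -4.07 ± 0.16 in vehicle livers (SD, n = 3 each), a difference of 1.21 (SE 0.15) or 2.31-fold. A difference of smaller size was found in 98.8% of all 11094 genes, a rank that follows from the choice of Aoc1 by this difference. Within slide 1 tBA replicate 1 was 0.94 above the vehicle mean, and the mean of the 2 tBA livers of slide 2 was 1.34 above it. The gene was read by a single probe, A_42_P592385, so no other probe could be set beside it. Its processed signal was 66.9, 82.0 and 89.8 in tBA livers, against 31.9, 42.4 and 37.6 in vehicle livers. These are dim spots, at least 0.98 log2 units above the lowest signal well above background on their array. With normexp background correction of the median signal and an offset of 50, which is of the size of these signals, the difference was 0.61. Tissue markers were looked up beside it because diamine oxidase is abundant in other organs.

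Of 7 intestinal epithelium markers 6 had a probe, 4 were well above background on all 6 arrays, and villin, Vil1, was below that limit throughout. Relative to the vehicle mean, the 5 tested intestinal markers averaged 0.25, -0.52 and -0.18 on tBA arrays 1 to 3. On vehicle arrays 1 to 3 they averaged 0.37, -0.27 and -0.096, and tBA replicate 2 was the lowest of the 6. By gene, 2 were higher and 3 lower with tBA, from -0.92 for Cdh17 to 0.78 for Cdx2. Of the 5 kidney markers with a probe, 2 were well above background on all 6 arrays, and Slc34a1 stayed below that limit throughout. The 2 tested, 1 higher and 1 lower with tBA, averaged between -0.16 and -0.026 on tBA arrays. Their averages on vehicle arrays lay between -0.25 and 0.12. Mast cell markers, looked up because these cells store histamine, averaged 0.11, -0.083 and -0.62 on tBA arrays 1 to 3 over 4 tested genes, against -0.11, 0.17 and -0.060 on vehicle arrays 1 to 3, and Ms4a2 again stayed below the limit. Bile duct markers averaged 0.40, -0.31 and -0.075 on tBA arrays 1 to 3, against 0.065, -0.020 and -0.045 on vehicle arrays 1 to 3. Macrophage markers lay between -0.28 and -0.12 on tBA arrays, against -0.15 to 0.22 on vehicle arrays, with groups that overlapped. Of these 6 markers, 1 was higher and 5 lower with tBA. T and NK cell markers averaged -0.38, -0.41 and 0.047 on tBA arrays 1 to 3, against -0.14, 0.19 and -0.042 on vehicle arrays 1 to 3. Of the 5 tested, 1 was higher and 4 lower with tBA. Stellate cell markers averaged -0.20, 0.17 and -0.33 on tBA arrays, against -0.081, -0.19 and 0.28 on vehicle arrays, and all 6 had a lower mean with tBA. Endothelial markers lay between 0.096 and 0.15 on tBA arrays, against -0.074 to 0.13 on vehicle arrays. Red blood cell markers ranged from -0.38 to 0.23 on tBA arrays, against -0.46 to 0.43 on vehicle arrays. The 3 tested pancreas markers were higher by their means, between 0.12 and 0.32 on tBA arrays, against -0.14 to 0.22 on vehicle arrays, with Prss1 and Pnlip below the limit on all 6 arrays. The groups overlapped in all 11 marker lists, and in limma 0 of their genes passed, where 0.0361% of all genes did. The part of these cell types in the Aoc1 and Azin1 values was not tested.

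**Figure D3:**
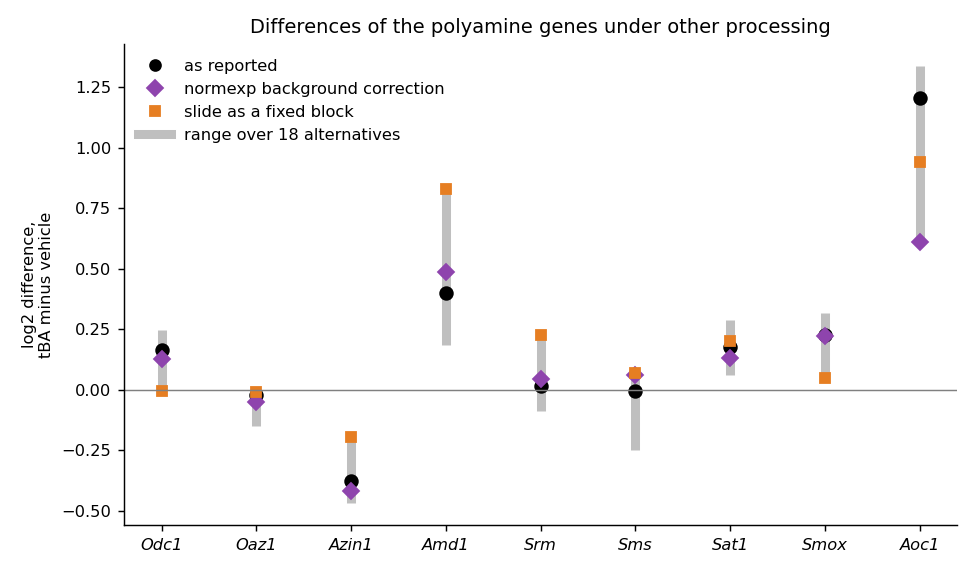
Log2 difference, tBA minus vehicle, of each polyamine gene as reported (black), with normexp background correction (purple), with slide as a fixed block (orange) and over all 18 alternatives (grey bars). Aoc1 stays above 0, between 0.61 and 1.34, and Azin1 below 0, between -0.47 and -0.19, while the bars of Odc1, Srm and Sms cross 0.

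Genes around the pathway were grouped in 6 lists that do not share members with it: 55 genes, of which 47 had a probe and 36 were tested. In limma 0 of the 36 passed, in either direction, where 0.0361% of all genes did. At an unadjusted p under 0.05 there were 7 of the 36, where 15.1% of all genes fell. Of the 36, 24 were higher and 12 lower with tBA, with a median of 0.093, and the groups did not overlap in 11, or 30.6%, against 24.2% of all genes. The adjusted p-values below are Benjamini-Hochberg values of limma over 11094 genes.

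The genes that supply ornithine had 6 of 8 tested members higher and none passing. Arg1, the arginase that releases ornithine in the urea cycle, was at 8.55, 8.48 and 8.66 in tBA livers, against 8.09, 8.22 and 8.36 in vehicle livers. Its groups did not overlap, at a difference of 0.34 (SE 0.11, adjusted p = 0.274). Ass1, argininosuccinate synthase, was at 0.42 (SE 0.17, adjusted p = 0.329) and at 0.24 within slide 1. Agmat, annotated as an agmatinase, was at 0.24, or 0.10 within slide 1. The mitochondrial ornithine carrier Slc25a15 differed by 0.26 on its brightest probe and by -0.44 on the other, so the mean of both was -0.089. Oat and Aldh18a1, enzymes of the semialdehyde shared with proline, were at -0.047 and -0.063 by their brightest probes. Their other probes were at -0.14 and -0.49, and within slide 1 the brightest were at 0.078 and -0.30.

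Of the genes of S-adenosylmethionine supply and of the salvage of methylthioadenosine, the by-product of both synthases, 5 of 8 were higher and 3 lower. Ahcy, which removes S-adenosylhomocysteine, had levels of 7.74, 8.35 and 8.11 in tBA livers, above 7.57, 7.70 and 7.25 in vehicle livers. The difference of 0.56 (SE 0.19, adjusted p = 0.286) was 0.24 within slide 1. Mat1a, the methionine adenosyltransferase of adult liver, was at 0.22 (SE 0.10, adjusted p = 0.371), and all 3 of its probes were higher. The salvage enzymes Apip and Adi1 were at 0.20 and 0.092, or 0.044 and 0.041 within slide 1.

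Among regulators and paralogues, 3 of 5 were higher and 2 lower, and no gene had groups apart, where 24.2% of all genes did. Aoc3, a membrane-bound amine oxidase related to Aoc1, was at -0.026, 0.69 and 0.36 in tBA livers, against -0.61, -0.48 and 0.014 in vehicle livers. Its difference of 0.70 (SE 0.24, adjusted p = 0.284) was 0.33 within slide 1, and 1 of its 3 probes was lower, at -0.17. Aoc2-ps1, the current name for rat Aoc2, was at -0.87 in vehicle replicate 1 and between -4.30 and -4.04 in the other 5 livers, so its difference of -1.04 became 0.080 without that liver. Its other probe differed by 0.69. Sat2 was at 0.17, or 0.017 without vehicle replicate 1. Azin2, a second antizyme inhibitor, was at 0.094 (SE 0.37), or -0.25 without tBA replicate 3 and 0.42 without tBA replicate 2. In the hypusine branch, which turns spermidine into the modified lysine of the translation factor Eif5a, Dhps was at -0.20 with groups apart (adjusted p = 0.377), Dohh at 0.18 and Eif5a at 0.036.

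Polyamine transport gave 3 of 5 tested genes higher and 2 lower. Atp13a2, a lysosomal polyamine exporter, was at -0.75, -0.77 and -0.77 in tBA livers, against -0.40, -0.24 and -0.27 in vehicle livers. The groups did not overlap and the tBA livers were nearly alike, at a difference of -0.47 (SE 0.086, adjusted p = 0.175) that ran from -0.51 to -0.43 over the alternatives, with adjusted p-values of 0.0898 to 0.660. Slc7a2, a carrier of cationic amino acids such as arginine, was at 1.59, 1.62 and 1.55 in tBA livers, against 1.23, 1.33 and 1.29 in vehicle livers. It differed by 0.31 (SE 0.081, adjusted p = 0.225), with all 3 probes higher and 0.31 within slide 1. Slc3a2 and Atp13a3 were at 0.027 and -0.11.

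In the list of amine and aldehyde oxidation, histamine and GABA, 5 of 7 were higher and 2 lower, and in 4 of the 7 the groups did not overlap, where 24.2% of all genes did not. Aldh1a1, an aldehyde dehydrogenase, was at 6.00, 6.23 and 6.26 in tBA livers, against 5.91, 4.77 and 5.23 in vehicle livers. Its difference of 0.86 (SE 0.28, adjusted p = 0.279) rested in part on the low vehicle replicate 2, without which it was 0.59. Aldh9a1, which oxidises the aldehyde formed from putrescine, was at 0.21 (adjusted p = 0.342) and Aldh2 at 0.15 (adjusted p = 0.417), each with 2 of 2 probes higher. Under quantile normalization Aldh2 was at 0.019 and Aldh9a1 at 0.087. Maob, a monoamine oxidase, was at -0.20 (adjusted p = 0.341). Hdc, which makes histamine, ranged from 1.63 to 1.77 in tBA livers and from 0.68 to 3.28 in vehicle livers. Its difference of -0.44 (SE 0.62) became -1.17 when vehicle replicate 1 was left out and 0.13 when vehicle replicate 3 was.

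**Figure D4:**
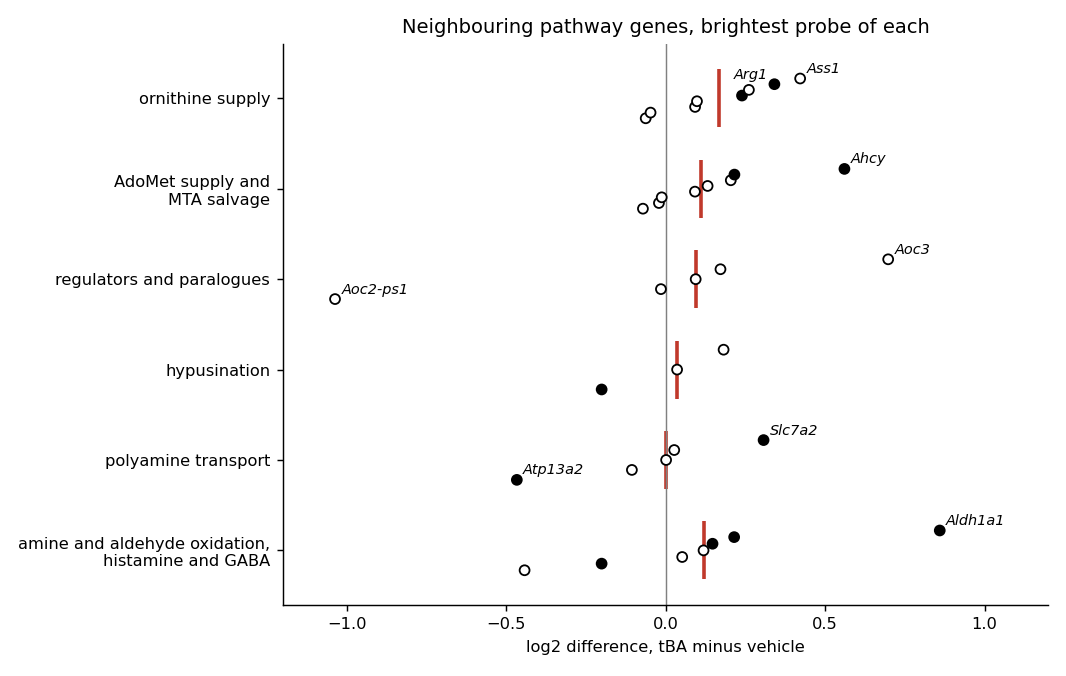
Log2 difference, tBA minus vehicle, of the 36 tested neighbouring genes by list, each from its brightest probe, with red lines at the list medians. Filled points are the 11 genes whose groups did not overlap; Aldh1a1 at 0.86, Ahcy at 0.56 and Atp13a2 at -0.47 lie farthest out among them.

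The genes whose 6 values lay nearest to those of Aoc1 were looked for among 11083 other named genes, with each gene set to its own mean and the root mean square distance over the 6 arrays as the measure. The nearest was Prodh, proline dehydrogenase, at a distance of 0.13, against a median of 0.65 over all genes. Its levels were 6.52, 6.63 and 6.93 in tBA livers, against 5.59, 5.81 and 5.68 in vehicle livers, in the order 3, 2, 1 of the tBA livers that Aoc1 also has. Next came Or52p2 at 0.16, Lgalsl and Grin2c at 0.17 and Eqtn at 0.18. These genes were picked by that distance on the same arrays, so their likeness to Aoc1 follows from the choice. Grin2c is a subunit of the NMDA glutamate receptor and Or52p2 an olfactory receptor; Or52p2 was well above background on 2 of the 3 vehicle arrays and Eqtn on 1. Among the polyamine genes Smox was nearest to Aoc1, at 0.51, ranking 1120, and Azin1 farthest, at 0.83.

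**Figure D5:**
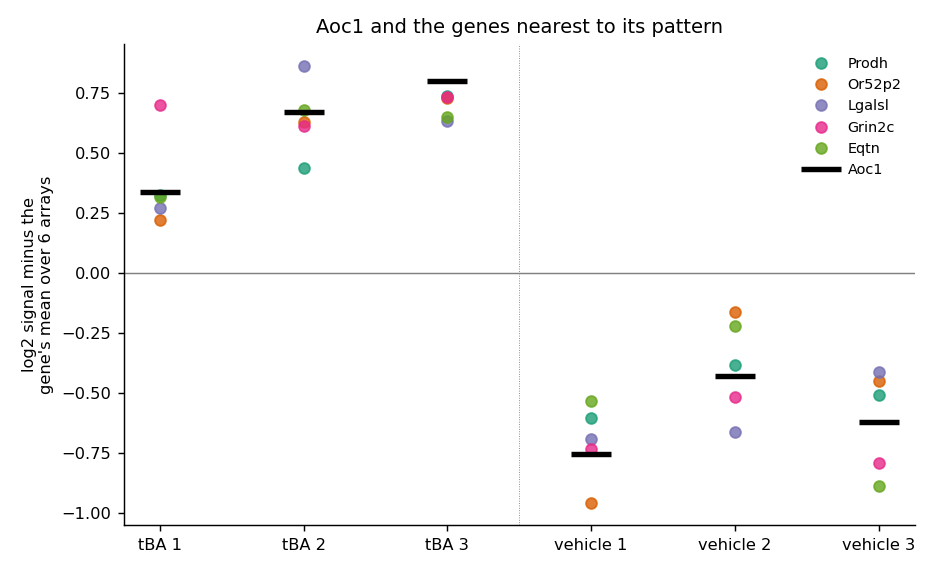
Log2 level of Aoc1 (black bars) and the 5 genes nearest to its pattern (points) on each array, less the mean of each gene over the 6 arrays. All 6 genes lie above 0 on the 3 tBA arrays and below 0 on the 3 vehicle arrays, and tBA replicate 1 is the lowest tBA array for Aoc1, Prodh, Or52p2, Lgalsl and Eqtn. The 5 genes were picked by nearness to Aoc1 on these arrays, so the shared pattern follows from the choice.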

How the data were processed

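Liver RNA of 3 tBA-treated and 3 vehicle-treated rats was measured with Cy3 label on Agilent 1-colour arrays, per the labels. The authors' deposited intensity per spot is the processed, background-subtracted signal; the file headers name Feature Extraction 10.7.1.1, and version 10.7 stands in the submitters' processing notes. The deposited series table is a linear ratio, the processed signal divided by a value per array between 570.0 and 639.5.

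The log2 processed signal minus the 75th percentile of the array was fitted with lmFit and eBayes (limma 3.58.1, R 4.3.3) over 37647 probes whose signal was well above background on every array of one group or the other, or of both, with Benjamini-Hochberg adjustment. Outlier spots, 3 to 16 per array, were left out. Each gene took its brightest probe. Probes were named through their accession in RefSeq genes of GRCr8: 27460 of 61657 probes were named. The array annotation uses rn4, so no coordinates of probes are given. The number of arrays limits the precision, and 3 against 3 cannot go below an exact p of 0.1. The members and lists were chosen with earlier results of these data known. In each list, up to 4 genes with the smallest p were named, with others added after their values were seen (Oat, Aldh18a1 and Hdc). Normexp was run on the median signal and its median background, a different input from the processed signal used elsewhere. A kidney marker is not reported here. Figures were drawn with matplotlib 3.10.9.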

Additional observations from a re-analysis of the deposited data

How the results depend on the processing

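Of the 18 alternatives, 4 (both filters, the intensity trend and the balanced replicate block) cannot change a difference of the 9 polyamine genes, and slide 1 alone repeats the fixed block. Under the other 13, 10 of 117 values moved by more than the SD between replicates. The signs of Aoc1, Azin1, Amd1, Sat1, Smox and Oaz1 did not turn; Odc1 turned under 1 of the 13, Sms under 4 and Srm under 5. None of the 9 genes passed in any alternative, and no gene of the 6 lists did. Over all probes limma passed 43, and 18 without a filter on dim probes, 0 with probes above background on all 6 arrays (5637 at an unadjusted p under 0.05), 68 with an intensity trend, 20 with slide as a fixed block, 0 on slide 1 alone (2956 unadjusted) and 6 with a replicate block. Over genes it passed 4, and 0 without the filter (1440 unadjusted), 2 with probes above background on all 6 arrays, 1 with slide as a fixed block, 0 on slide 1 alone (806 unadjusted) and 0 with a replicate block (1336 unadjusted). Leaving out an array gave 6 to 45 probes, with 6 when tBA replicate 2 was dropped, 14 for tBA replicate 3, 22 for vehicle replicate 1 and 25 for vehicle replicate 3. It gave 0 to 4 genes, with 4 when tBA replicate 1 was dropped, 1 for vehicle replicate 3 and 0 for each of the others. The cause of these changes was not tested. Replicate numbers were not treated as pairs in the main fit. Same-numbered tBA and vehicle livers had correlations of deviations of -0.056, -0.064 and 0.014, and differently numbered ones from -0.058 to 0.11. With 3 livers per group these values cannot show whether the livers were paired. Slide as a fixed block rests on tBA replicate 1 alone as the treated arm. The Aoc1 difference was 0.61 under normexp, which changes the input signal, the background method and the offset together.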
